A study of Homo sapiens with 15 samples.

Results

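Genes of the chemokine, interleukin, colony-stimulating factor and tumour necrosis factor (TNF) families, with their receptors, were followed in WI-38, human lung fibroblasts of fetal origin that stop dividing after a limited number of passages. They were taken by name: every gene whose symbol begins with CXCL, CXCR, CX3C, TNFSF or TNFRSF, or with CCL, CCR, IL or CSF and a digit, apart from IL6ST and IL7R. The rule found 40 genes among the 4872 genes of the 4 deposited tables, and 63 entries over all tables. GENCODE 29, a reference annotation, gives such names to 182 protein-coding genes. The 40 genes comprised 11 chemokines, 8 interleukins, 4 TNF family ligands, 8 TNF receptor family genes, 8 interleukin receptor genes and 1 colony-stimulating factor receptor. No chemokine receptor was among them.

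RNA sequencing covered 15 libraries in 5 groups of 3. The study treats PD45 cells as senescent. They received siSRC2, siSRC4, GW8510 or the control treatment, and PD30 cells were the younger culture. PD is read as population doublings, and siSRC2 and siSRC4 as different siRNAs against SRC, from the sample titles. SRC encodes a non-receptor tyrosine kinase, and GW8510 is a kinase inhibitor known to act on cyclin-dependent kinases. All groups carried the lipofection reagent lipo3000. The siSRC2, siSRC4, PD45 control and PD30 groups carried DMSO, and the GW8510 group carries GW8510 in place of DMSO in its label, so compound and solvent cannot be told apart. The GW8510 and PD45 control groups also carried NC, read as a control siRNA, and the PD30 group did not, so passage and NC cannot be told apart. Dose and exposure time of GW8510 are not in the labels. All libraries came from 1 cell line, and nothing in the labels says that the libraries of a group were separate cultures.

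Cells that have entered senescence are known for a secretory pattern in which fibroblasts release chemokines, interleukins, proteases and growth factors. Transcription of many of these genes is driven by NF-κB and C/EBPβ, and IL-1 acting through its receptor maintains it. Chemokines attract leukocytes through receptors on those cells, while TNF family ligands and receptors control survival, death and costimulation of lymphocytes. Decoy receptors bind a ligand without passing on its full signal.

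Each table lists only genes that the authors called at an adjusted p under 0.05 and a fold change of at least 1.5, so every entry below had already been selected as different, and absence from a table does not mean that a gene was stable. Values are the deposited normalized signal. Its unit, TPM or FPKM, is not given in the sources used here, and the read depth is unknown. Ratios are ratios of mean signals. Unless named as the authors', the adjusted p-values are those of limma on log2(signal + 1), fitted over all listed genes of a table with a mean signal of at least 1. Only genes already selected enter this adjustment. For several low-signal genes limma gave smaller adjusted p-values than the authors, such as 0.00193 against 0.0176 for CCL26 at PD45. For genes of higher signal it gave larger ones, such as 1.06e-06 against 2.57e-63 for TNFRSF21 at PD45. The reason for these differences was not tested. With 3 libraries a group, the smallest two-sided exact permutation p is 0.1. The number of genes the authors tested was inferred from their p-values. By that number, the listed share of tested genes was 15.3% in the passage comparison. It was 11.8% in the GW8510 table, 2.64% in that of siSRC2 and 8.77% in that of siSRC4.

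SRC itself was lower in both knockdowns, at 10.6 to 11.6 with siSRC2 and 9.51 to 11.8 with siSRC4, against 19.0 to 20.5 in the PD45 control. Of 10 fibroblast markers, VIM, COL3A1 and PDGFRA were listed as lower at PD45, and their summed signal was 3299 to 3483 at PD45 and 5571 to 5989 at PD30. Most of this sum was VIM, at 3158 to 3346 at PD45 and 5162 to 5585 at PD30. Of 7 epithelial markers, KRT8, KRT18 and KRT19 were listed as higher, with a summed signal of 162 to 188 at PD45 and 50.8 to 56.5 at PD30. KRT19 made up most of that sum, at 123 to 148 at PD45 and 29.1 to 32.8 at PD30. HCLS1, the 1 listed leukocyte marker of 13, was at 7.44 to 7.92 at PD45 and 0.25 to 0.29 at PD30. TEK, the 1 listed endothelial marker of 6, was at 6.22 to 8.53 at PD45 and 28.8 to 31.4 at PD30. KRT19 stood at 204 to 251 with GW8510, against 123 to 148 in the PD45 control. The 2 listed fibroblast markers moved in opposite directions with GW8510. COL3A1 was at 182 to 236 with GW8510 and 108 to 122 in the PD45 control, and FAP at 22.97 to 25.48 with GW8510 and 46.15 to 50.87 in the control. With GW8510, CD68 and HCLS1 together stood at 30.4 to 35.1, against 51.8 to 62.6 in the PD45 control. The other leukocyte markers, among them PTPRC, were in no table and were not analysed here. The part of these markers in the results was not tested. In bulk RNA, fewer cells of a type and less RNA per cell cannot be told apart.

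The comparison of PD45 with PD30 sets the older culture, which also carried NC, against the younger one without NC. It held 33 of the 40 genes, or 82.5%, and its table listed 2845 of all 4872 genes, or 58.4%. Of the 33, 19 were listed as higher and 14 as lower at PD45, and 46.2% of all genes listed for this comparison were higher. Both TNF family ligands, 4 of 7 TNF receptor family genes, 6 of 11 chemokines and 4 of 5 interleukins were higher at PD45. Of the 7 listed interleukin receptor genes, 5 were lower. Of the 33 genes, 22 reached the signal minimum of the limma fit and all 22 passed it in the listed direction, where 97.3% of all fitted genes of the table did so. PD45 and PD30 libraries were separate for 32 of the 33, and for 93.6% of listed genes. The median log2 difference was 0.97 for the fitted genes listed as higher and -0.95 for those listed as lower, against 0.75 and -0.81 over all fitted genes of each direction. The plot of PD45 over PD30 shows 31 of the 33 genes.

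**Figure D1:**
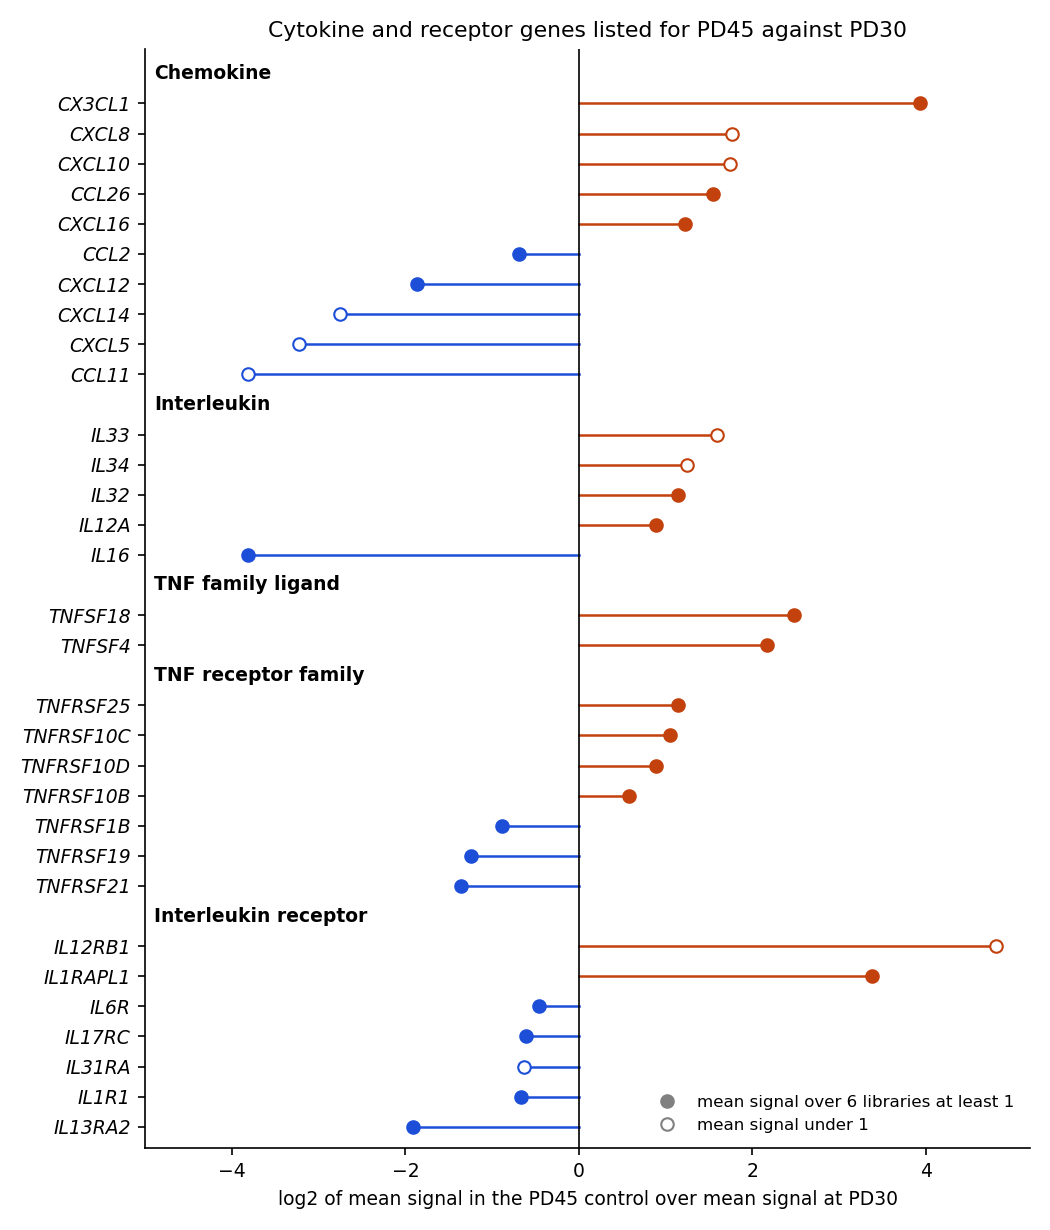
Log2 ratio of the mean signal in the PD45 control over that at PD30 (horizontal axis) for 31 listed genes, by family; filled points have a mean signal of at least 1 over the 6 libraries and open points less. CCL3 and CSF2RB, at 0 in every PD30 library, are left out. Both TNF family ligands lie to the right of 0, and each of the other families has genes on both sides.

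Among chemokines, CX3CL1, the membrane-anchored attractant fractalkine, had the highest ratio of those fitted. Its signal was 4.23, 4.32 and 2.45 in the PD45 libraries and 0.28, 0.15 and 0.29 at PD30, a 15.3-fold higher level (limma adjusted p = 8.51e-06). The third PD45 library was the lowest of its group and still far above every PD30 library. CCL26, an eotaxin that attracts eosinophils, was at 4.36, 6.10 and 6.89 at PD45 and 2.42, 0.72 and 2.78 at PD30, a ratio of 2.93 (adjusted p = 0.00193, limma). CXCL16, a transmembrane chemokine for CXCR6, was at 1.26, 1.43 and 1.77 at PD45 and 0.64, 0.66 and 0.61 at PD30, 2.34-fold higher (limma adjusted p = 0.000863). The PD45 and PD30 libraries of CCL26 and CXCL16 did not overlap, and the authors' own adjusted p-values were weaker, at 0.0176 for CCL26 and 0.0282 for CXCL16.

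CXCL8 and CXCL10, chemokines of the senescent secretory pattern, were at low signal in both PD45 and PD30 libraries. CXCL8, which attracts neutrophils, was at 1.86, 1.23 and 1.35 at PD45 and 0.57, 0.39 and 0.35 at PD30, a ratio of 3.39. CXCL10, an interferon-induced attractant of T cells, was at 1.29, 0.70 and 1.0 at PD45 and 0.38, 0.19 and 0.32 at PD30, a ratio of 3.36. Neither reached the signal minimum of the fit. Without that minimum, limma gave adjusted p-values of 0.000375 for CXCL8 and 0.00135 for CXCL10. The authors' own adjusted p-values were weaker, at 0.00466 for CXCL8 and 0.0430 for CXCL10. CCL3, a macrophage inflammatory protein, was listed at 0 in all PD30 libraries and at 2.36, 1.45 and 0.37 at PD45. Its signal is uncertain because near-identical copies of CCL3 lie in the genome.

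The other 5 chemokines were listed as lower at PD45. CXCL12, the ligand of CXCR4 that retains stem cells and lymphocytes in tissue, was at 3.58, 3.23 and 2.67 at PD45 and 12.2, 10.9 and 11.4 at PD30, a 3.64-fold lower level (limma adjusted p = 3.34e-06). CCL2, the monocyte attractant usually counted in the secretory pattern, was at 108, 146 and 156 at PD45 and 226, 211 and 226 at PD30, 1.61-fold lower (adjusted p = 0.000459, limma). No library of PD45 reached the lowest of PD30 for either gene. CCL11, an eotaxin, averaged 0.08 at PD45 and 1.13 at PD30. CXCL5, a neutrophil attractant, averaged 0.0333 at PD45 and 0.313 at PD30, and CXCL14, a chemokine of epithelia and stroma, 0.07 at PD45 and 0.473 at PD30. All 3 were below the signal minimum.

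The stretch of 250 bases before the transcript start is shown for the chemokines CXCL8, CXCL10 and CXCL12, which were listed in opposite directions at PD45, and for the interleukins IL6 and IL32, described below. The sequences are those of RefSeq, which held 26 of the 40 genes, and run 5′ to 3′ on the coding strand of the gene. Capitals mark matches to GGNNTTTCC, the core of many NF-κB sites, on either strand, to the AP-1 site TGANTCA on either strand, and to the TATA box on the coding strand, searched as TATAAA.
CXCL8 (GRCh38.p14, chr4:73740319-73740568, plus strand): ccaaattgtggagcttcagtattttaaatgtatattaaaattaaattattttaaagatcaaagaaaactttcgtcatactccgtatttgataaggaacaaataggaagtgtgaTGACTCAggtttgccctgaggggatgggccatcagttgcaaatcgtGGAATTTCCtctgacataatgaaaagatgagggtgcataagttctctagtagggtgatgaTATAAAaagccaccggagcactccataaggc
CXCL10 (GRCh38.p14, chr4:76023498-76023747, minus strand): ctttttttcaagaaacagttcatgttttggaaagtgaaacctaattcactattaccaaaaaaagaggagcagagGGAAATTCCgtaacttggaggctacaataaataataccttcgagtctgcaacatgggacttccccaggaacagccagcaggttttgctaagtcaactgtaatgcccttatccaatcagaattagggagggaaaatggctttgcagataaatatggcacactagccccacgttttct
IL6 (GRCh38.p14, chr7:22726950-22727199, plus strand): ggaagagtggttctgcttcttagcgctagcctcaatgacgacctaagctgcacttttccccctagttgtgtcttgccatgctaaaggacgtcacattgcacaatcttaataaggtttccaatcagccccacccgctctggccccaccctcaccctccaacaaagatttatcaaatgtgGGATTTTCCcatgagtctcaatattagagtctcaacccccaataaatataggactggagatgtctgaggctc
IL32 (GRCh38.p14, chr16:3065153-3065402, plus strand): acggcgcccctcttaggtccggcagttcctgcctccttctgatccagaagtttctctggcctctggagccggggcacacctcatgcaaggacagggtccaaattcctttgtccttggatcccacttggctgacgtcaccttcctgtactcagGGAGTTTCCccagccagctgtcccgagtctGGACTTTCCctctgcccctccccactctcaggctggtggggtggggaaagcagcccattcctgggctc
CXCL12 (GRCh38.p14, chr10:44385098-44385347, minus strand): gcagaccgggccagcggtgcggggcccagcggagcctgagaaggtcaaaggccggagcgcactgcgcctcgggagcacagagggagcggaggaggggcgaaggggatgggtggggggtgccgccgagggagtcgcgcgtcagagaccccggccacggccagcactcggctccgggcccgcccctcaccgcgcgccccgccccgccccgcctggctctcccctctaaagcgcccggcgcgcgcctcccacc

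CXCL8 held all 3 motifs, with GGAATTTCC 91 to 83 bases before the start, TGACTCA further upstream and TATAAA close to the start. CXCL10 held GGAAATTCC, a match on the opposite strand, IL6 held GGATTTTCC, and IL32 held GGAGTTTCC and GGACTTTCC. The sequence shown for IL32 is the first of its 2 starts in RefSeq, and the other, at chr16:3065534-3065783, held no match. CXCL12, rich in G and C, held none of the 3. CXCL5 held the same 9 letters as CXCL8, GGAATTTCC, 90 to 82 bases before its start, although it was listed as lower at PD45 and CXCL8 as higher. The 26 genes had 35 promoters, of which 5 held the NF-κB-type letters, as did 5.48% of all 35116 RefSeq promoters. TGANTCA was found in 3 of the 35 and in 6.57% of all promoters, and TATAAA in 3 of the 35 and in 6.8%. These are matches of letters and say nothing of binding.

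Of the interleukins, IL32, a proinflammatory cytokine without a close relative, was at 27.2, 32.7 and 33.1 at PD45 and 13.9, 10.7 and 17.5 at PD30, 2.21-fold higher (limma adjusted p = 0.000119). IL12A, the p35 subunit shared by IL-12 and IL-35, was at 5.88, 10.8 and 6.79 at PD45 and 5.67, 3.83 and 3.18 at PD30, a ratio of 1.85 (adjusted p = 0.0105, limma). The groups of IL12A lay close together, with the lowest PD45 library just above the highest PD30 library. IL12A shares exon positions with the antisense gene IL12A-AS1, and the sources used here do not say whether counting used strand. IL33, a nuclear alarmin of the IL-1 family, was at 0.51, 0.54 and 0.76 at PD45 and 0.17, 0.26 and 0.17 at PD30. IL34, a ligand of the macrophage growth factor receptor CSF1R, was at 0.62, 0.66 and 1.37 at PD45 and 0.48, 0.23 and 0.41 at PD30. Both were under the signal minimum of the fit, and neither had overlapping groups. IL16, a chemoattractant for CD4 cells, was the 1 interleukin listed as lower, averaging 0.267 ± 0.0058 at PD45 and 3.76 ± 0.301 at PD30 (SD, n = 3), a 14.1-fold difference (limma adjusted p = 5.60e-07). Exons of IL16 overlap STARD5 on the opposite strand.

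Both listed TNF family ligands are costimulators of T cells, and their genes are neighbours on chromosome 1 in GENCODE 29 (GRCh38), TNFSF18 at chr1:173039960-173050963 and TNFSF4 at chr1:173183734-173207313, both on the minus strand. TNFSF4, or OX40 ligand, was at 7.25, 8.22 and 8.78 at PD45 and 1.61, 2.07 and 1.7 at PD30, 4.51-fold higher (limma adjusted p = 2.79e-06). TNFSF18, or GITR ligand, was at 1.43, 1.68 and 2.10 at PD45 and 0.34, 0.23 and 0.36 at PD30, 5.60-fold higher (adjusted p = 3.72e-05, limma). The libraries of both genes were separated widely between the passages.

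The 3 listed membrane receptors of TRAIL, a death-inducing ligand, were higher at PD45. TNFRSF10B, which carries a death domain, was at 112, 107 and 108 at PD45 and 77.2, 71.7 and 70.2 at PD30, a ratio of 1.49 (limma adjusted p = 5.05e-05). The decoy TNFRSF10D was at 205, 185 and 195 at PD45 and 104, 99.99 and 112 at PD30, a ratio of 1.85 (limma adjusted p = 5.25e-06). The decoy TNFRSF10C, lower in signal, was at 5.60, 3.60 and 4.52 at PD45 and 2.38, 1.78 and 2.46 at PD30, a ratio of 2.07 (adjusted p = 0.00121, limma). The ratio was larger for both decoys than for the death receptor, and this difference between genes was not tested. The sequences of these receptor genes are similar, and exons of TNFRSF10B overlap RHOBTB2 on the opposite strand. TNFRSF25, a death receptor of lymphocytes, averaged 2.76 ± 0.70 at PD45 and 1.25 ± 0.106 at PD30 (SD, n = 3), and its exons overlap ESPN and PLEKHG5.

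Other TNF receptor family genes were lower at PD45. TNFRSF21, or death receptor DR6, was at 13.5, 12.4 and 12.01 at PD45 and 32.0, 32.6 and 32.7 at PD30, 2.56-fold lower (limma adjusted p = 1.06e-06). TNFRSF19, known as TROY and expressed by progenitor cells of several tissues, was at 15.4, 16.6 and 17.3 at PD45 and 39.1, 40.5 and 37.1 at PD30, 2.37-fold lower (limma adjusted p = 1.66e-06). TNFRSF1B, the inducible TNF receptor that is also shed as a soluble form, was at 3.89, 5.30 and 4.47 at PD45 and 8.49, 8.44 and 8.24 at PD30, 1.84-fold lower (adjusted p = 0.000299, limma). The PD30 libraries of all 3 genes were tightly grouped and lay above every PD45 library.

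Most interleukin receptors were also lower at PD45. IL1R1, the signalling receptor of IL-1, was at 22.8, 18.4 and 17.3 at PD45 and 29.1, 32.1 and 31.8 at PD30, 1.59-fold lower (limma adjusted p = 0.000352). IL6R, the ligand-binding chain for IL-6, was at 4.56, 4.30 and 3.74 at PD45 and 5.45, 5.75 and 6.11 at PD30, 1.37-fold lower (limma adjusted p = 0.0122). IL17RC, a chain of the IL-17 receptor, was at 8.84, 10.3 and 10.8 at PD45 and 14.9, 17.3 and 13.3 at PD30, 1.52-fold lower (adjusted p = 0.00174, limma). Receptors that bind the secretory cytokines IL-1 and IL-6 were thus lower at PD45, while neither IL1A, IL1B nor IL6 was listed for this comparison. IL13RA2, a decoy for IL-13, averaged 0.753 ± 0.0503 at PD45 and 2.85 ± 0.105 at PD30 (SD, n = 3), 3.78-fold lower.

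IL1RAPL1, a synaptic relative of the IL-1 receptors, went the opposite way. It was at 4.98, 4.90 and 3.58 at PD45 and 0.40, 0.55 and 0.34 at PD30, 10.4-fold higher (limma adjusted p = 2.15e-06). IL12RB1, a shared chain of the IL-12 and IL-23 receptors, averaged 0.28 at PD45, and its PD30 libraries were at 0.03, 0 and 0. CSF2RB, the shared beta chain of the GM-CSF receptor, averaged 0.0933 at PD45 and was listed at 0 in all PD30 libraries. IL31RA was the 1 gene of this comparison whose libraries overlapped, at 0.40, 0.32 and 0.18 at PD45 and 0.39, 0.48 and 0.53 at PD30. The authors' deposited table gave a 2.34-fold higher level at PD30 for IL31RA, the signals gave 1.56-fold, and limma without the signal minimum did not pass (adjusted p = 0.0774).

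Read against the secretory pattern, the passage comparison went both ways, as did its listed genes in general, of which 46.2% were higher at PD45. Of 35 factors of the pattern that belong to these families, 10 were listed, 5 higher (CXCL8, CXCL10, CCL3, CCL26, TNFRSF10C) and 5 lower at PD45 (CXCL12, CCL2, CCL11, CXCL5, TNFRSF1B). Among these, CXCL8, CXCL10, CCL3, CCL11 and CXCL5 were under the signal minimum of the fit. Of 47 secretory factors outside the families, 20 were listed, 13 higher and 7 lower. The difference of either count from the share over all listed genes was not tested. IGFBP7, a growth factor-binding protein, was 3.5-fold higher at PD45, and the hormone STC1 was at 63.5 ± 16.8 at PD45 and 20.1 ± 1.60 at PD30 (SD, n = 3). BMP2, a TGF-β family ligand, was 2.90-fold higher at PD45, and ICAM1, an adhesion molecule for leukocytes, was likewise 2.90-fold higher.

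Of 76 NF-κB and cytokine-signalling genes, 20 were listed for the passages, 10 higher and 10 lower at PD45, beside the 46.2% of all listed genes that were higher. SOCS1 and SOCS3, inhibitors of cytokine receptors, were 3.89-fold and 2.84-fold lower at PD45. CEBPB, which encodes C/EBPβ, was at 43.5 ± 6.92 at PD45 and 67.0 ± 13.4 at PD30 (SD, n = 3). RELB, of the NF-κB family, went the other way, at 12.2 ± 1.18 at PD45 and 6.32 ± 0.443 at PD30 (SD, n = 3). IL7R, the receptor of IL-7, was at 37.6 ± 3.86 at PD45 and 15.5 ± 1.91 at PD30, and CEBPD, a transcription factor of inflammation, at 59.0 ± 2.6 at PD45 and 141 ± 24.2 at PD30 (SD, n = 3).

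**Figure D2:**
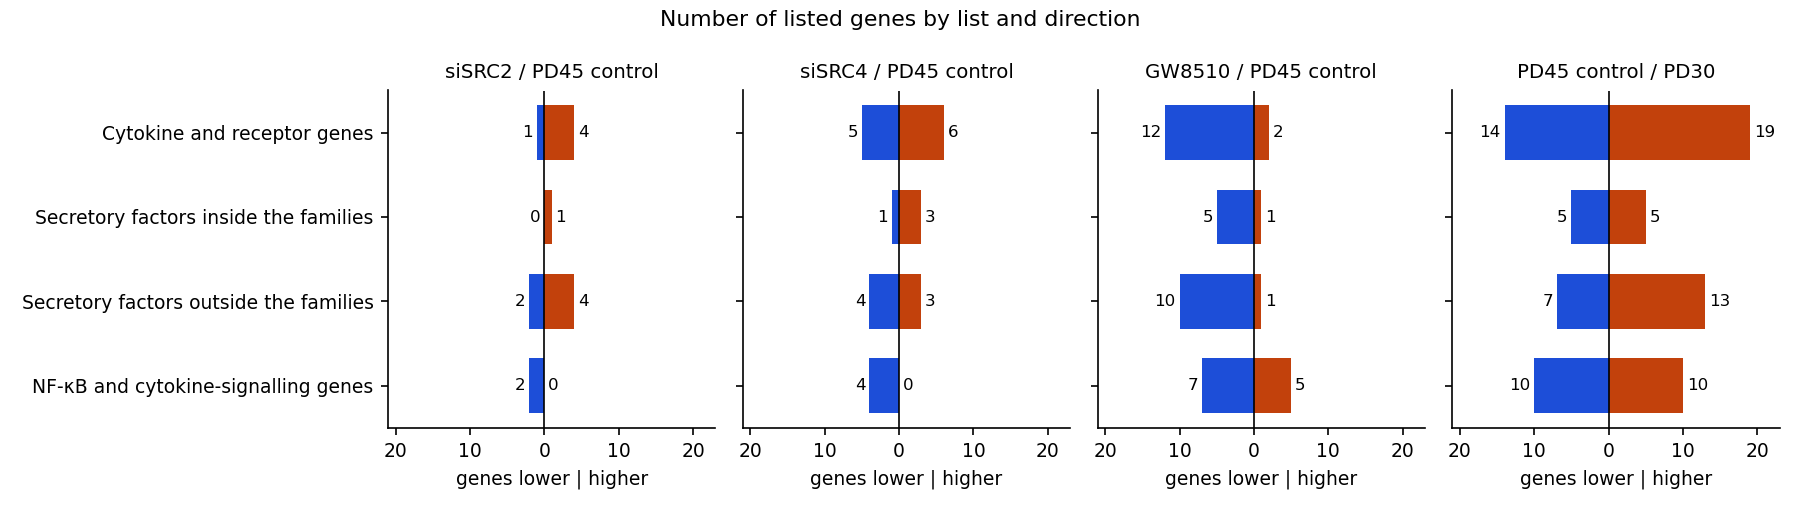
Number of genes listed as higher (right, orange) and lower (left, blue) for each treatment over the PD45 control and for the PD45 control over PD30. Of the 40 cytokine and receptor genes, 14 were listed for GW8510, 12 lower and 2 higher, where 38.8% of all listed genes were higher. For PD45, 33 were listed, 19 higher and 14 lower, where 46.2% of all listed genes were higher.

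The GW8510 comparison sets treated PD45 cells against the PD45 control. It held 14 of the 40 genes, or 35%, and its table listed 37.9% of all 4872 genes. Of the 14, 12 were lower and 2 higher with GW8510, and 38.8% of all genes listed for it were higher. All 5 listed chemokines, 3 of 4 interleukins and 2 of 3 TNF family ligands were lower. Of the 14 genes, 9 reached the signal minimum and all 9 passed the limma fit, where 95.4% of all fitted genes did. All 14 had separate libraries in GW8510 and control, as did 90.6% of all listed genes. The median log2 difference was 0.41 for the fitted genes listed as higher and -1.04 for those listed as lower, against 0.57 and -0.72 over all fitted genes of each direction. For GW8510 the signal ratios run below the authors' deposited fold changes by a median of 0.12 on the log2 scale.

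TNFRSF11B, the secreted decoy osteoprotegerin that binds RANKL and TRAIL, fell. It was at 49.4, 40.2 and 51.8 with GW8510 and 145, 123 and 127 in the PD45 control, 2.79-fold lower (limma adjusted p = 1.35e-05). IL11, a cytokine of the IL-6 family tied to fibrosis, was at 6.71, 5.55 and 5.71 with GW8510 and 14.8, 14.9 and 11.3 in the control, 2.28-fold lower (adjusted p = 0.000143, limma). In each gene the highest GW8510 library lay far under the lowest control library.

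CXCL12, already low at PD45, was lower again with GW8510, at 1.04, 0.69 and 1.05, against 3.58, 3.23 and 2.67 in the control. The difference was 3.41-fold (limma adjusted p = 0.000136), and the GW8510 mean was 12.4-fold below that of PD30, with no overlap of libraries (two-sided exact permutation p = 0.1). The GW8510 libraries of CXCL12 thus lay further from PD30 than the PD45 control did. CXCL8 and CXCL10 stood nearer to PD30. CXCL8 was at 0.72, 0.17 and 0.38 with GW8510, against 1.86, 1.23 and 1.35 in the control, and its GW8510 and PD30 libraries overlapped. CXCL10 was at 0.10, 0.21 and 0.23 with GW8510, against 1.29, 0.70 and 1.0 in the control, and also overlapped with PD30.

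CXCL16 was at 0.56, 0.28 and 0.38 with GW8510, against 1.26, 1.43 and 1.77 in the control, and lay under every PD30 library. CXCL8, CXCL10 and CXCL16 were below the signal minimum, and limma without it gave adjusted p-values of 0.00117, 0.00051 and 0.000346. The authors' own adjusted p-values for these genes were weaker, at 0.0114, 0.00730 and 0.00194. Exons of CXCL16 overlap MED11 on the opposite strand. CX3CL1 was at 2.07, 2.09 and 2.05 with GW8510, against 4.23, 4.32 and 2.45 in the control, 1.77-fold lower (limma adjusted p = 0.00980). The GW8510 libraries of CX3CL1 were nearly equal, and their mean was still 8.63-fold above that of PD30.

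Both neighbouring ligand genes fell, and the difference between them was not tested. TNFSF18 was at 0.31, 0.32 and 0.36 with GW8510, against 1.43, 1.68 and 2.10 in the PD45 control, 5.26-fold lower (limma adjusted p = 0.00012), and its GW8510 libraries overlapped those of PD30. TNFSF4 was at 5.35, 5.78 and 4.38 with GW8510, against 7.25, 8.22 and 8.78 in the control, 1.56-fold lower (adjusted p = 0.00330, limma). Its GW8510 mean was 2.88-fold above that of PD30, with no overlap. IL1RAPL1 was at 2.11, 1.5 and 1.40 with GW8510, against 4.98, 4.90 and 3.58 in the control, 2.69-fold lower (limma adjusted p = 0.000313), and 3.88-fold above PD30.

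The alarmin IL33 and the CSF1R ligand IL34 were lower at low signal. IL33 was at 0.12, 0.15 and 0.28 with GW8510, against 0.51, 0.54 and 0.76 in the control, and its GW8510 libraries overlapped those of PD30. IL34 was at 0.11, 0.20 and 0.15 with GW8510, against 0.62, 0.66 and 1.37 in the control, and lay under all PD30 libraries. Limma without the signal minimum gave adjusted p-values of 0.00257 for IL33 and 0.00161 for IL34, where the authors' own were 0.0110 and 0.0238.

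IL15 and TNFSF9 were the genes that rose with GW8510. IL15, a growth factor of T and NK cells, averaged 2.72 ± 0.215 with GW8510 and 1.82 ± 0.236 in the control (SD, n = 3), a ratio of 1.5 (limma adjusted p = 0.0138). Without the first PD45 control library the adjusted p of IL15 was 0.0512. TNFSF9, the ligand of the costimulator 4-1BB, was at 1.13, 1.67 and 1.22 with GW8510, against 0.82, 0.73 and 0.67 in the control, a ratio of 1.81 (adjusted p = 0.0116, limma). The authors' own adjusted p-values were weaker, at 0.0362 for IL15 and 0.0454 for TNFSF9.

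Of the secretory factors inside the families, 6 were listed for GW8510, 5 lower (TNFRSF11B, CXCL12, IL11, CXCL8, CXCL10) and IL15 higher. Outside the families, 10 of 11 were lower, and IGFBP3, named after its values were seen, was 1.61-fold higher. These counts stand beside the 38.8% of all listed genes that were higher, and the difference was not tested. AREG, an EGF receptor ligand, was at 1.18 ± 0.281 with GW8510 and 8.90 ± 3.33 in the control, MMP1, a collagenase, at 3.92 ± 0.841 with GW8510 and 23.8 ± 8.15 in the control, and STC1 at 23.2 ± 1.15 with GW8510 and 63.5 ± 16.8 in the control (SD, n = 3). IGFBP2, a binding protein of insulin-like growth factors, was 2.43-fold lower.

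Of the NF-κB and cytokine-signalling genes, 12 were listed for GW8510, 7 lower and 5 higher, beside the 38.8% of all listed genes that were higher. The difference from that share was not tested. CEBPD was at 141 ± 47.0 with GW8510 and 59.0 ± 2.6 in the control, and SOCS1 at 9.40 ± 3.44 with GW8510 and 3.95 ± 0.48 in the control (SD, n = 3). SOCS3 was 1.98-fold higher, while IRAK2, a kinase downstream of the IL-1 receptor, was 1.95-fold lower.

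**Figure D3:**
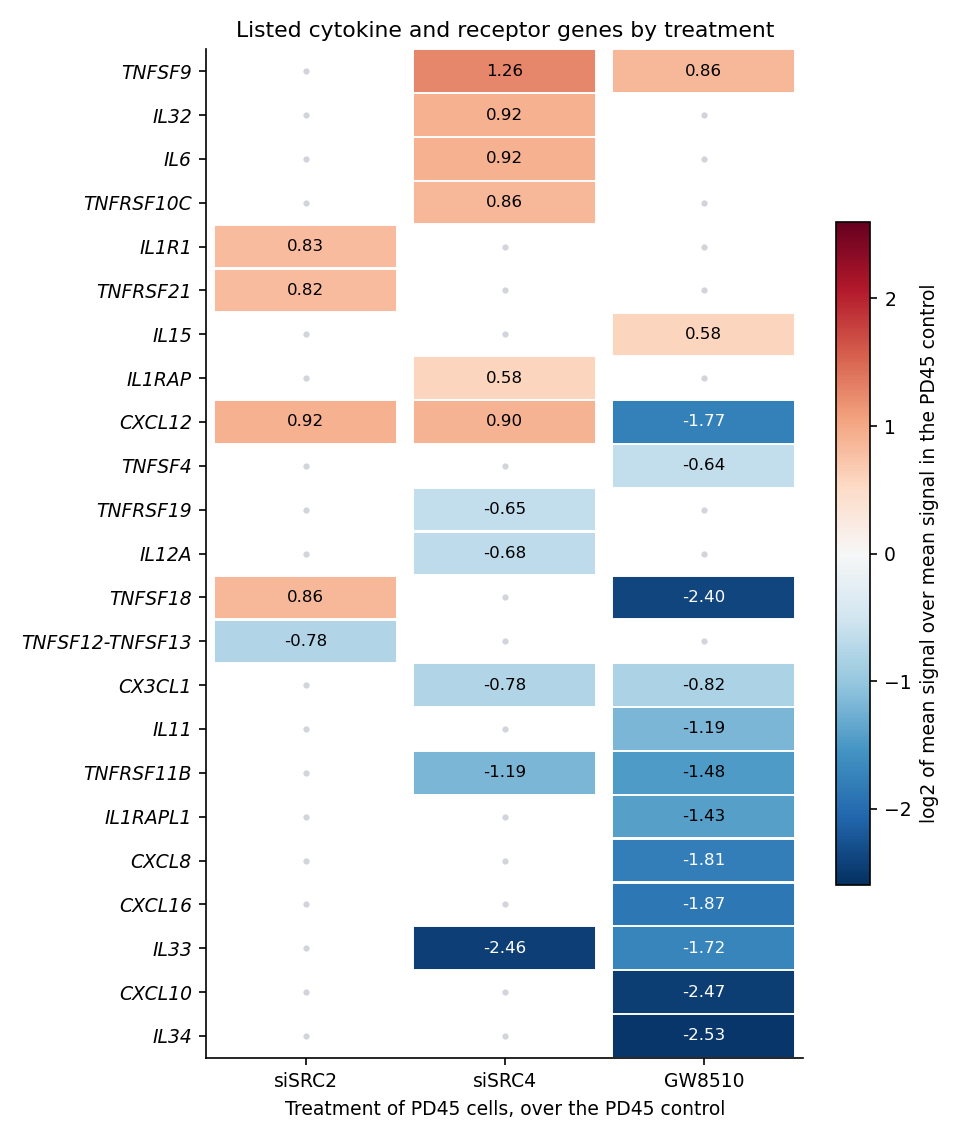
Log2 ratio of mean signal in each treatment over the PD45 control for the 23 genes listed for at least 1 treatment; red is higher, blue is lower, and a grey dot marks a gene not listed. CXCL12 is higher with both siRNAs, at 0.92 and 0.90, and lower with GW8510, at -1.77.

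The siSRC2 comparison concerns SRC knockdown by 1 of the siRNAs. It held 5 of the 40 genes, or 12.5%, and its table listed 6.79% of all 4872 genes. Of the 5, 4 were higher and 1 was lower, and 52.3% of all genes listed for it were higher. All 5 passed the limma fit, as did 95.5% of fitted genes, and none had overlapping groups, against 90.6% of listed genes without overlap. The median log2 difference of the 4 higher genes was 0.76, against 0.66 over all fitted higher genes. The genes that rose were 2 receptors, 1 chemokine and 1 TNF family ligand.

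TNFRSF21 was at 22.1, 24.2 and 20.6 with siSRC2, against 13.5, 12.4 and 12.01 in the PD45 control, a ratio of 1.76 (limma adjusted p = 0.000215). IL1R1 was at 38.8, 35.9 and 29.2 with siSRC2, against 22.8, 18.4 and 17.3 in the control, a ratio of 1.78 (adjusted p = 0.000557, limma). The siSRC2 libraries of IL1R1 overlapped those of PD30, and those of TNFRSF21 lay between the PD45 control and PD30. Exons of IL1R1 overlap the antisense gene IL1R1-AS1. CXCL12 was at 6.61, 6.33 and 5.05 with siSRC2, against 3.58, 3.23 and 2.67 in the control, a ratio of 1.90 (limma adjusted p = 0.000843). Its siSRC2 mean was 1.92-fold below that of PD30, without overlap.

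TNFSF18 was at 3.37, 2.99 and 3.07 with siSRC2, against 1.43, 1.68 and 2.10 in the control, a ratio of 1.81 (limma adjusted p = 0.00161). This moved the GITR ligand further from PD30, whose mean was 10.1-fold lower than with siSRC2. The 1 gene listed as lower was TNFSF12-TNFSF13, a read-through transcript of 2 neighbouring ligand genes, at 2.59, 1.56 and 3.02 with siSRC2, against 4.40, 3.88 and 3.99 in the control (limma adjusted p = 0.00599). Its signal is uncertain because it shares its exons with TNFSF12 and TNFSF13. The authors' own adjusted p-values were weaker, at 0.00549 for TNFSF18 and 0.0163 for TNFSF12-TNFSF13.

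Inside the families, CXCL12 was the 1 secretory factor listed for siSRC2. Outside them, 4 of 6 were higher and 2 lower, beside the 52.3% of all listed genes that were higher, a difference that was not tested. PLAT, the tissue plasminogen activator, was at 362 ± 17.8 with siSRC2 and 134 ± 3.5 in the control, and SERPINB2, an inhibitor of plasminogen activators, at 57.7 ± 8.94 with siSRC2 and 117 ± 5.13 in the control (SD, n = 3). Of the signalling genes, IL7R and NFKBIE, an inhibitor of NF-κB, were 1.55-fold and 1.59-fold lower. The fibroblast marker COL3A1 was at 201 to 252 with siSRC2 and 108 to 122 in the control. The epithelial marker KRT19 was at 72.3 to 75.1 with siSRC2 and 123 to 148 in the control, and the endothelial marker TEK at 11.6 to 14.1 with siSRC2 and 6.22 to 8.53 in the control.

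The siSRC4 comparison concerns the other siRNA. It held 11 of the 40 genes, or 27.5%, and its table listed 26.3% of all 4872 genes. Of the 11, 6 were higher and 5 lower, and 44.6% of all genes listed for it were higher. Of the 11, 10 reached the signal minimum and all 10 passed the limma fit, where 93.7% of fitted genes did. The groups did not overlap for 9 of the 11, and for 88.8% of all listed genes. Fitted genes had a median log2 difference of 0.73 where listed as higher and -0.59 where lower, close to the 0.66 and -0.62 over all fitted genes.

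IL6, the central interleukin of the senescent secretory pattern, was in 1 of the 4 tables, that of siSRC4. It was at 8.46, 6.5 and 6.79 with siSRC4, against 3.71, 3.4 and 4.42 in the PD45 control, 1.89-fold higher (limma adjusted p = 0.00183). Every siSRC4 library of IL6 lay above every control library, and the authors' own adjusted p was weaker, at 0.00978. GENCODE places exons of STEAP1B on the opposite strand over IL6. IL32 was at 54.1, 58.8 and 62.5 with siSRC4, against 27.2, 32.7 and 33.1 in the control, also 1.89-fold higher (adjusted p = 0.000397, limma). Its siSRC4 mean was 4.17-fold above that of PD30. IL1RAP, the coreceptor of IL-1 and IL-33, averaged 4.0 ± 0.537 with siSRC4 and 2.67 ± 0.285 in the control (SD, n = 3), a ratio of 1.5 (limma adjusted p = 0.0151).

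CXCL12 was at 7.39, 5.89 and 4.45 with siSRC4, against 3.58, 3.23 and 2.67 in the control, a ratio of 1.87 (limma adjusted p = 0.00551). Its siSRC4 and siSRC2 libraries overlapped, with means of 5.91 with siSRC4 and 5.997 with siSRC2, and both groups lay above every GW8510 library and under every PD30 library. TNFRSF10C was at 8.73, 8.86 and 7.28 with siSRC4, against 5.60, 3.60 and 4.52 in the control, a ratio of 1.81 (adjusted p = 0.00308, limma), and 3.76-fold above PD30. TNFSF9 was at 1.78, 2.23 and 1.32 with siSRC4, against 0.82, 0.73 and 0.67 in the control, 2.40-fold higher (limma adjusted p = 0.00281). For TNFSF9 with siSRC4 the authors' own adjusted p was weaker, at 0.0162. The siSRC4 and GW8510 libraries of TNFSF9 overlapped.

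TNFRSF11B also fell with siSRC4. It was at 64.1, 52.6 and 56.2 with siSRC4, against 145, 123 and 127 in the control, 2.28-fold lower (limma adjusted p = 0.000209). TNFRSF19, lower at PD45 than at PD30, was lower again, at 10.53, 10.02 and 10.9 with siSRC4, against 15.4, 16.6 and 17.3 in the control (limma adjusted p = 0.00152). Its siSRC4 mean was 3.72-fold below that of PD30. IL33 was at 0.08, 0.12 and 0.13 with siSRC4, against 0.51, 0.54 and 0.76 in the control, 5.48-fold lower, and lay under every PD30 library (limma adjusted p = 0.00131 without the signal minimum).

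IL12A and CX3CL1 were the genes whose groups overlapped, although both were lower with siSRC4 in each of the 3 same-numbered pairs. IL12A was at 4.02, 3.97 and 6.66 with siSRC4, against 5.88, 10.8 and 6.79 in the control (limma adjusted p = 0.0430, two-sided exact permutation p = 0.2). Leaving out any of 4 libraries, siSRC4 replicates 1 and 2 and control replicates 2 and 3, ended the call of IL12A in fits without the replicate block, with adjusted p-values of 0.066 to 0.171. CX3CL1 was at 2.61, 2.44 and 1.34 with siSRC4, against 4.23, 4.32 and 2.45 in the control (limma adjusted p = 0.0329, two-sided exact permutation p = 0.2). The ratio within the pairs was 0.617, 0.565 and 0.547 for CX3CL1 and 0.684, 0.369 and 0.981 for IL12A. The third pair of IL12A was thus nearly equal. With the replicate block limma gave an adjusted p of 0.00336 for CX3CL1 and 0.042 for IL12A. The labels state no pairing, and it was read from replicate numbers and weak correlations in these same libraries. The blocked fit is therefore no independent support for either gene. Without siSRC4 replicate 3, or without control replicate 1 or 2, the adjusted p of CX3CL1 was 0.104 to 0.11 in the unblocked fit.

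Inside the families, 4 secretory factors were listed for siSRC4, with IL6, CXCL12 and TNFRSF10C higher and TNFRSF11B lower. Outside them, 3 were higher and 4 lower. MMP14, a membrane-bound protease, was at 824 ± 82.7 with siSRC4 and 331 ± 39.8 in the control, and FGF7, a growth factor for epithelia, at 18.4 ± 5.12 with siSRC4 and 45.4 ± 2.87 in the control (SD, n = 3). All 4 listed signalling genes were lower, among them IL7R by 2.19-fold. These counts for siSRC4 stand beside the 44.6% of all listed genes that were higher, and the difference was not tested. No marker of another cell type was listed for siSRC4.

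**Figure D4:**
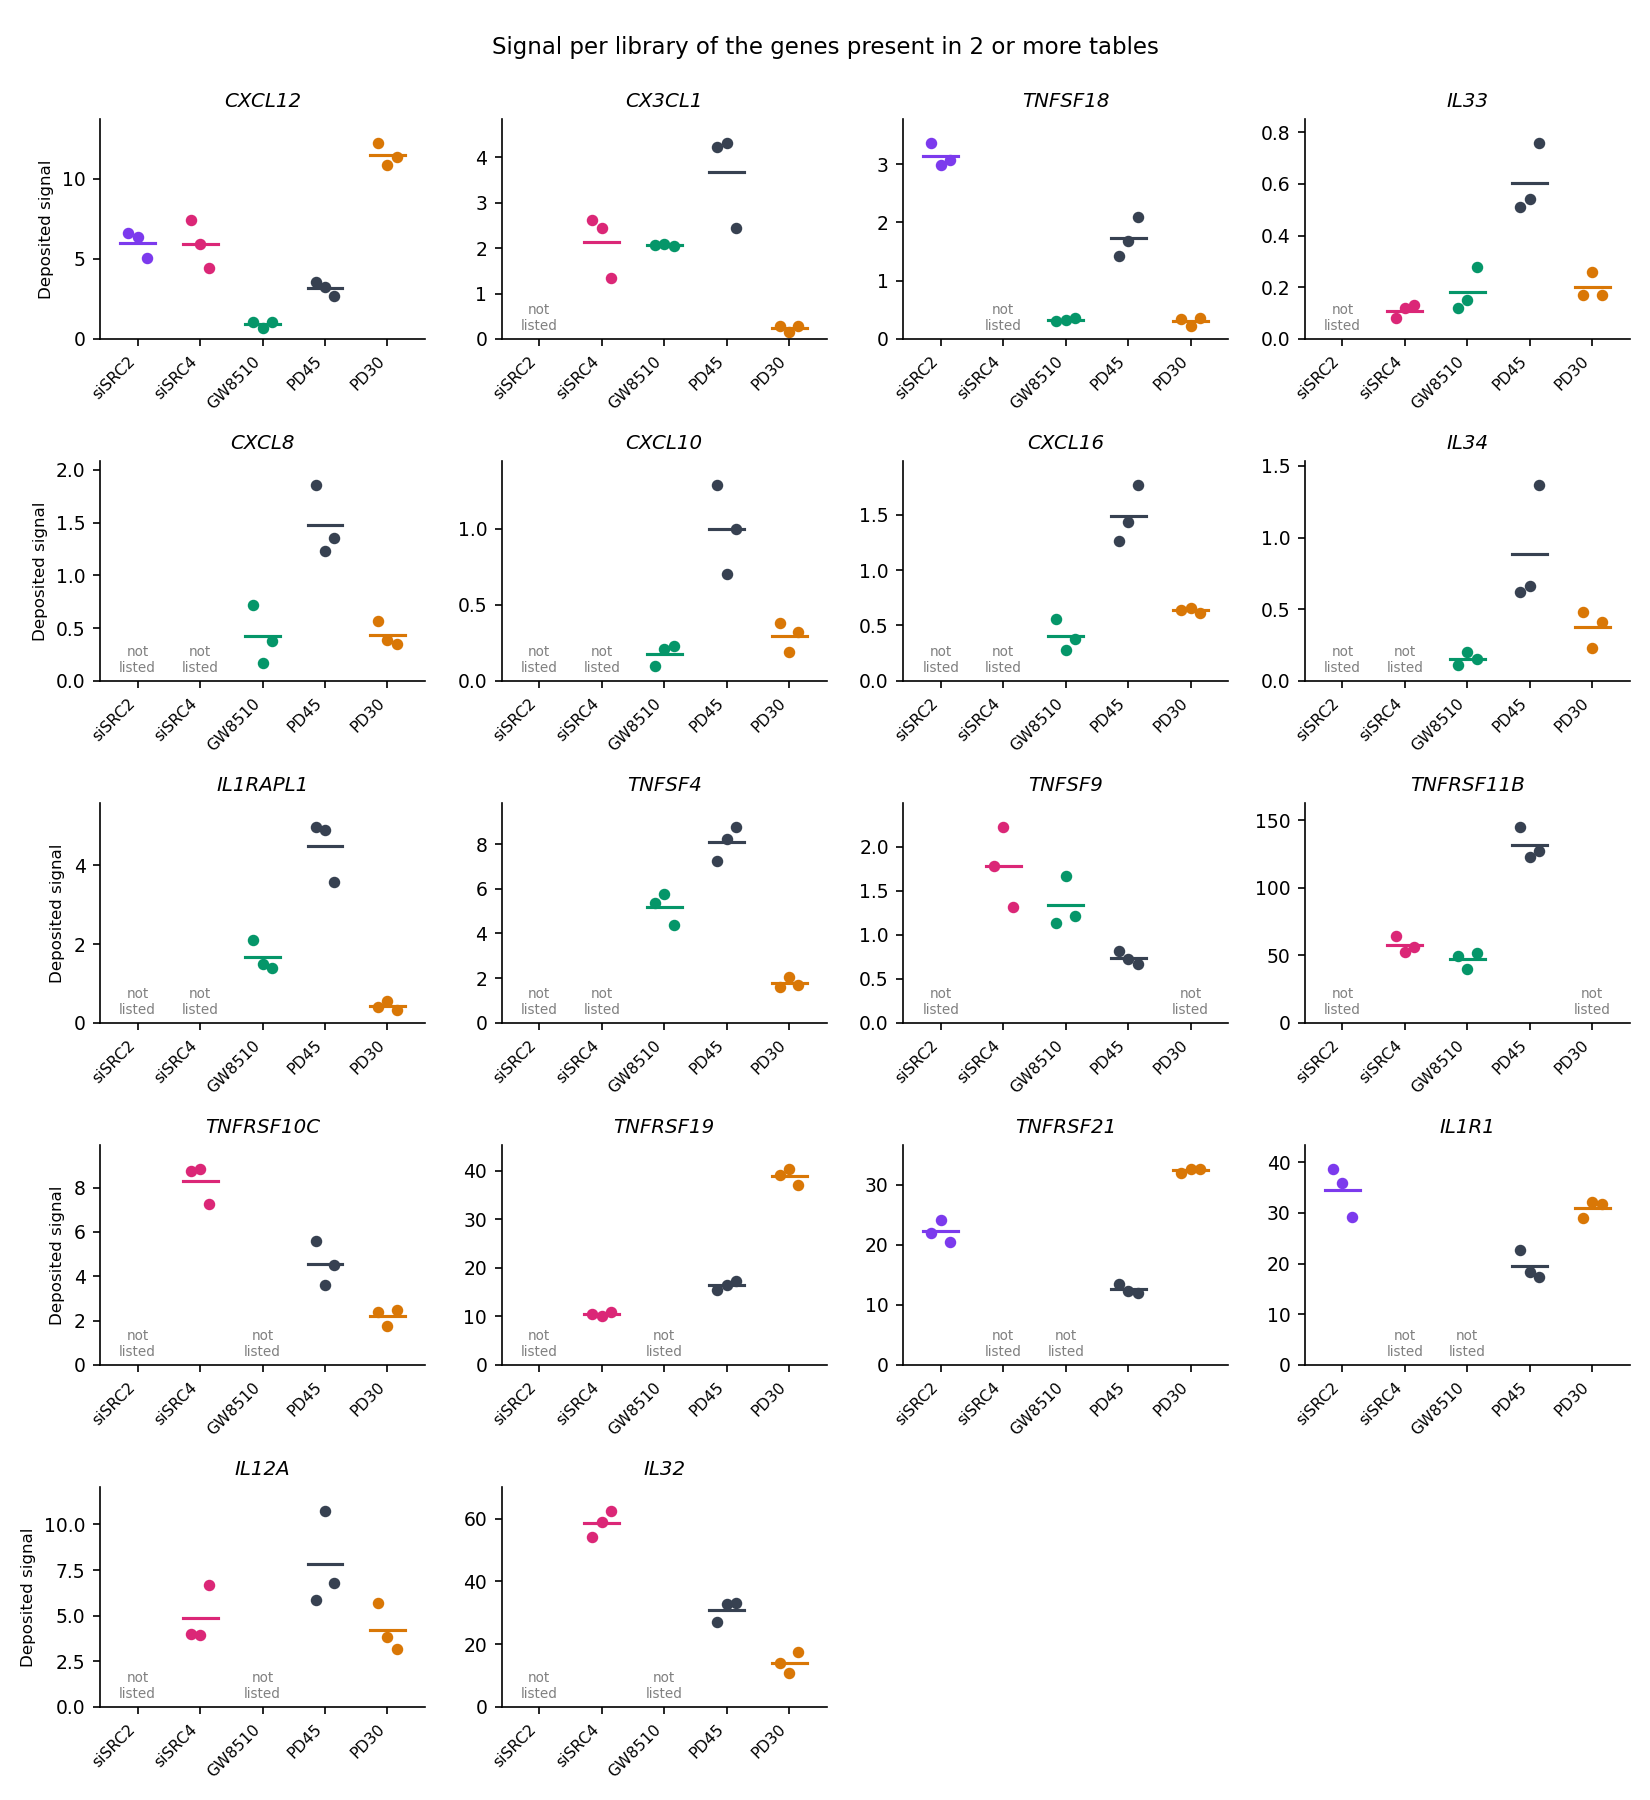
Deposited signal (vertical axis, from 0) in each library of the 18 genes present in at least 2 tables, by group; points are libraries and bars are means of 3. Groups in which a gene was not listed are marked. CXCL12 is lowest with GW8510, at 0.69 to 1.05, and highest at PD30, at 10.9 to 12.2, while TNFSF18 is highest with siSRC2, at 2.99 to 3.37.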

How the data were processed

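RNA sequencing of 15 libraries gave 4 deposited tables, each of 1 group against the PD45 control. The authors' deposited signal is a normalized expression value per gene and library, and the tables also hold, per the file headers, the authors' fold ratio, log2 fold change, p-value and adjusted p-value. Per the submitters' processing notes, the tools were HISAT2, StringTie, RSEM, CASAVA, edgeR and DESeq2, with no roles given, and the build was the mouse GRCm38, although the gene identifiers are human. Tables were matched to groups by library names: library columns named siSRC4 stand beside a mean column titled siSRC2, and those named siSRC2 beside one titled siSRC.

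Listed genes with a mean signal of 1 or more over the 6 libraries of a comparison were refitted on log2(signal + 1) by limma 3.58.1 (R 4.3.3, trend option), at an adjusted p under 0.05 (Benjamini-Hochberg). This scale understates changes of low genes, and the test is conditional on the authors' selection. P-values measure the spread between libraries, which may be technical. Means, ratios and two-sided exact permutation tests used Python 3.11.15. The members and gene lists were chosen with earlier results of these data known. Library values are given for genes in 2 or more tables or with a group mean of at least 5. Outside this rule they are also given for CCL3, IL31RA and TNFSF12-TNFSF13, and at PD30 for IL12RB1 and CSF2RB. Genes outside the families are named from the lists, at most 4 a list and comparison, by the largest log2 ratio among those with a group mean of at least 5. CEBPB and RELB at PD45 and IGFBP3 with GW8510 were named in addition, after their values were seen. The labels state no pairing of libraries. Deviations from the group mean correlated weakly between same-numbered libraries for siSRC4 (r of 0.107 to 0.136) and siSRC2 (r of 0.088 to 0.218).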

Additional observations from a re-analysis of the deposited data

How the results depend on the processing

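The limma fit was repeated with a pseudocount of 0.1, without the signal minimum, without the trend, with the replicate number as a block, and with each library left out. Of 460 values for 46 gene and comparison pairs, 452 had the direction and the side of the threshold of the first fit and none was reversed. The other 8, for IL15, IL12A and CX3CL1, came from leaving out 1 library. Without the signal minimum, 14 rather than 9 genes passed for GW8510, because 5 more genes entered the fit, and 32 rather than 22 for PD45. In the first fit, 97.3% of all fitted genes passed for PD45, 95.4% for GW8510, 95.5% for siSRC2 and 93.7% for siSRC4. That share is not given for the other settings, so the counts of this section show nothing particular to the families. The median log2 difference over all fitted genes of the families, 0.59 for PD45, was 0.72 with the pseudocount of 0.1 and 0.42 without the minimum. For GW8510, at -1.03, it was -1.17 and -0.78, and for siSRC4, at 0.55, it was 0.71 and 0.44. These medians pool genes listed as higher with genes listed as lower, so they do not show a shift of the families as a whole. Over all fitted genes of a comparison, the median in the first fit was -0.45 for PD45 and -0.54 for GW8510. It was 0.26 for siSRC2 and -0.47 for siSRC4. With 1 library left out, the number of family genes passing was 22 throughout for PD45 and 8 to 9 for GW8510. It was 5 throughout for siSRC2 and 8 to 9 for siSRC4. The pooled medians of the families then ranged from 0.55 to 0.61, -1.02 to -0.94, 0.68 to 0.82 and 0.48 to 0.60, in the same order. With the replicate block the counts were 22 for PD45, 9 for GW8510, 5 for siSRC2 and 10 for siSRC4, and no call changed. For siSRC2, as for siSRC4, same-numbered libraries correlated above differently numbered ones, at 0.09 to 0.22 against -0.14 to 0.07 for siSRC2. Same-numbered libraries correlated at -0.11 to 0.01 for PD30 and 0.02 to 0.11 for GW8510. Differently numbered libraries there reached 0.09 for PD30 and 0.14 for GW8510. Read depth is unknown, so what low signals such as those of CXCL8, CXCL10 and IL33 can resolve cannot be stated.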
